A study of Mus musculus with 6 samples.

Results

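Chemokine genes were examined in mouse MS-5 stromal cells cultured alone and in MS-5 cells co-cultured with leukaemic cells. The genes were a fixed list of 10 chemokine ligands, taken out of 35968 genes with a transcript in the deposited files, by a rule that uses no measured value. Earlier results of these data were known when this list was chosen. The list held 6 CXC chemokine genes (Cxcl1, Cxcl2, Cxcl5, Cxcl12, Cxcl14 and Cxcl16), 3 CC chemokine genes (Ccl2, Ccl7 and Ccl9) and 1 CX3C chemokine gene (Cx3cl1). RNA-seq had been done on 3 libraries of MS-5 only (MO1, MO2 and MO3) and on 3 libraries of MS-5 from co-culture (MC1, MC2 and MC3). The stromal line, MS-5, comes from mouse bone marrow and the leukaemic line, SKM-1, from human AML, so that the comparison rests on 1 line of each kind. Both groups were kept in the same serum-supplemented RPMI medium, and the co-cultures held 4 SKM-1 cells per stromal cell for 24 hr on a confluent stromal layer. The leukaemic cells were then removed with a PBS wash and a mild trypsinisation. The labels do not say whether the libraries of a group came from separate cultures, so p-values measure the spread between these libraries, which may be technical.

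Chemokines are small secreted proteins that bind G protein-coupled receptors and guide the movement of leukocytes. In the bone marrow, stromal cells are the main source of Cxcl12, which retains haematopoietic and leukaemic cells in the niche through their receptor Cxcr4. Inflammatory chemokines such as Cxcl1 and Ccl2 are made by stromal cells in response to cytokines and microbial products, through NF-kB, and draw neutrophils and monocytes. Their mRNAs are short-lived and are cleared by RNA-binding proteins such as Zfp36.

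The depth was 23978881 to 27182453 estimated counts for the MS-5 only libraries and 26258451 to 35694987 for those from co-culture. MO2 and MC3 stood apart from the other 4 libraries. A count was given to 65170 and 66456 transcripts in them and to 51533 to 57350 elsewhere, and their mitochondrial share of counts was 6.07% and 5.92%, where the rest had 10.6% to 13.2%. The second principal component, with 25.6% of the variance, parted them from the rest, and the labels name no batch. MO2 and MC3 were also the highest libraries of their group, in TPM (transcript abundance corrected for length), in 8 of the 8 chemokine genes that passed the filter on low counts and in 72.6% of the 13221 genes tested. In CPM (counts scaled by library size and the TMM factors), this held for 3 of the 8 genes and for 33.1% of all genes tested. Libraries are therefore compared below on the CPM scale, and TPM is used to compare genes with each other.

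The labelled stromal identity was checked with 12 stromal markers, all of which passed the filter on low counts, though Lepr had 0 to 14 estimated counts in the MS-5 only libraries. Their summed level ranged from 11844 to 14476 CPM in MS-5 only and from 13118 to 16510 CPM in co-culture. Of the 12, 0 passed edgeR's test between the groups, against 4.38% of all genes tested. In 1 of them (Pdgfra) the unadjusted p-value was under 0.05, against 14.3% of all genes tested. In 3 (Pdgfra, Pdgfrb and Lepr) all co-culture libraries lay above all MS-5 only libraries, as in 11.6% of all genes tested. Of 15 leukocyte markers, 12 were tested and 8 were called higher in co-culture, against 3.71% of all genes tested. These 8 had 0 to 17 estimated counts in the MS-5 only libraries and entered the test mostly through co-culture, so the share is not comparable. The 15 markers had a summed level of 43.3 to 44.5 CPM in MS-5 only and 92.3, 343 and 90.6 CPM in MC1, MC2 and MC3. Endothelial markers, 6 in number, summed to at most 1.84 CPM in MS-5 only and 8.88 CPM in co-culture. The latter was in MC2, where Pecam1 alone held 7.71 CPM. In bulk samples, fewer cells of a type and less RNA per cell cannot be told apart.

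Cxcl12 is made as several proteins that differ at their carboxy-terminal end, and the ends of their coding sequences are shown because the libraries could be compared for the use of each. The 3 coding transcripts in GENCODE M21 share their first 267 coding bases on the plus strand of chromosome 6 of GRCm38. The last 15 shared bases are given in lower case and the bases that differ, to the end of the stop codon, in capitals. Cxcl12-202, which encodes 89 residues (the alpha form), ends within the same exon, at chr6:117173565-117173582. Cxcl12-203 (93 residues, beta) and Cxcl12-201 (119 residues, gamma) go on in a further exon, so that their sequences span an intron and end at bases 117178598 and 117176179 of chromosome 6.
Cxcl12-202: aaagctttaaacaagTAA
Cxcl12-203: aaagctttaaacaagAGGCTCAAGATGTGA
Cxcl12-201: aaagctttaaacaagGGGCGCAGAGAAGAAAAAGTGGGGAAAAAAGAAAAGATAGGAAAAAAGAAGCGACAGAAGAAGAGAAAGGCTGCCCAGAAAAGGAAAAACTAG

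The promoters of Cxcl1 and Cxcl2 are shown because these neighbouring genes share a run with an NF-kB-type site, while only Cxcl1 of the pair had counts in every library. RefSeq promoters (GRCm38.p6) matched 6 of the 10 genes, and Cxcl5, Cxcl16, Ccl2 and Ccl7 had no entry. Each window covers 250 bases before the start and 50 bases after it, and the 120 bases before the start are printed, at chr5:90891125-90891244 for Cxcl1 and chr5:90903779-90903898 for Cxcl2, both on the plus strand. Capitals mark the longest run of bases that both stretches hold, 14 bases.
Cxcl1: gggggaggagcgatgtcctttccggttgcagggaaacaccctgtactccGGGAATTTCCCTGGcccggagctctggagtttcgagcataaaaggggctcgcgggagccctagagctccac
Cxcl2: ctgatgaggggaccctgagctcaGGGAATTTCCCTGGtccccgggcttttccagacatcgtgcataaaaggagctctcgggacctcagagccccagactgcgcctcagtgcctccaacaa
The run began 71 bases before the RefSeq start of Cxcl1 and 97 bases before that of Cxcl2. The GENCODE M21 gene starts, at bases 90891241 and 90903871 of chromosome 5, lie within the printed stretches, so the run is closer to those. Searched on both strands, it was present in 2 of 32851 windows of the same length (0.00609%), those of these genes, and in none of the windows of Cxcl12, Cxcl14, Ccl9 and Cx3cl1. The hypoxia-response core ACGTG had 1 match among the 6 genes, in Cxcl1 and outside the printed stretch, and was present on either strand in 19.6% of all windows. A match is a description of the letters and not of binding.

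In MS-5 only, Cxcl12 was the most abundant of the 10 genes, at 763 ± 417 TPM (SD, n = 3). It was followed by the monocyte chemokine genes Ccl2 at 318 ± 92.7 TPM and Ccl7 at 273 ± 79.1 TPM, and by Ccl9, a myeloid chemokine gene, at 271 ± 54.1 TPM. Cx3cl1 (51.1 ± 19.7 TPM), Cxcl1 (24.7 ± 22.0 TPM), Cxcl5 (14.4 ± 8.79 TPM) and Cxcl14 (7.90 ± 1.26 TPM) lay lower. Cxcl2 and Cxcl16 were close to the limit of detection, at or under 0.420 TPM in every library. Neighbours in this order overlapped in their library values, except that Ccl9 lay above Cx3cl1, and Cxcl14 above Cxcl2, in every library of MS-5 only. In co-culture, Cxcl12 stood at 994 ± 424 TPM and its libraries no longer overlapped those of Ccl2, at 227 ± 123 TPM. Ccl9 (252 ± 47.9 TPM) and Ccl7 (222 ± 133 TPM) then lay on either side of Ccl2, with overlapping libraries. For Ccl9 the TPM rests largely on Ccl9-202, a 398-base transcript annotated as a processed transcript with no coding sequence, which held 67.1% to 68.8% of its TPM and 12.9% to 14.3% of its counts.

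**Figure D1:**
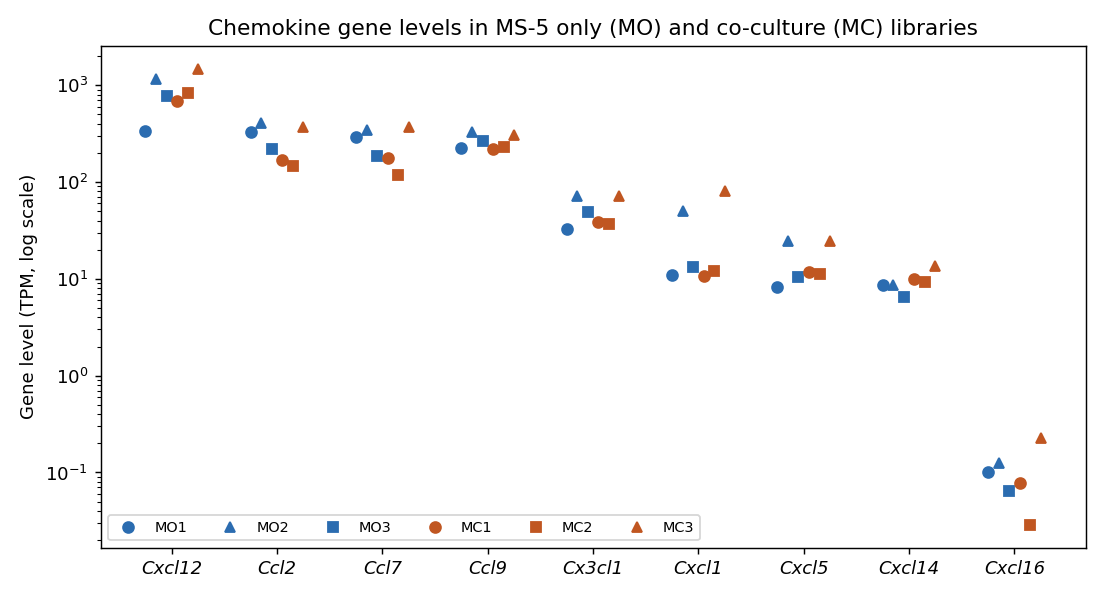
Gene level in TPM (log axis) of 9 chemokine genes in each MS-5 only library (MO, blue) and each co-culture library (MC, orange), with the highest mean in MS-5 only at the left. Cxcl2, which is listed at 0 in 5 libraries, is left out. Triangles mark MO2 and MC3, which hold the highest TPM of their group in all genes from Cxcl12 to Cxcl14.

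Differences between the groups were tested by edgeR's quasi-likelihood method on all 13221 genes, and those with a Benjamini-Hochberg adjusted p-value under 0.1 were called. Of the 8 chemokine genes tested, 0 passed, against 4.38% of all genes tested, and 0 had an unadjusted p-value under 0.05, against 14.3% of all genes. DESeq2's Wald test and limma on log2 TPM also called 0 of the 8. Cxcl12, Cxcl14, Cxcl1 and Cxcl5 had positive and Ccl2, Ccl7, Ccl9 and Cx3cl1 negative log2 fold changes, from -0.51 to 0.63, with a median of 0.06 where the median of all genes tested was -0.02. Cxcl14 was the gene whose groups did not overlap, higher in co-culture. Of all genes tested, 21.2% had groups that did not overlap, 11.6% with co-culture higher and 9.59% with co-culture lower. With a covariate for MO2 and MC3, Ccl2 and Cxcl14 passed, where 30.2% of all genes tested passed. With MO2 and MC3 left out, Ccl2 passed, against 13.0% of the genes tested in those 4 libraries.

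**Figure D2:**
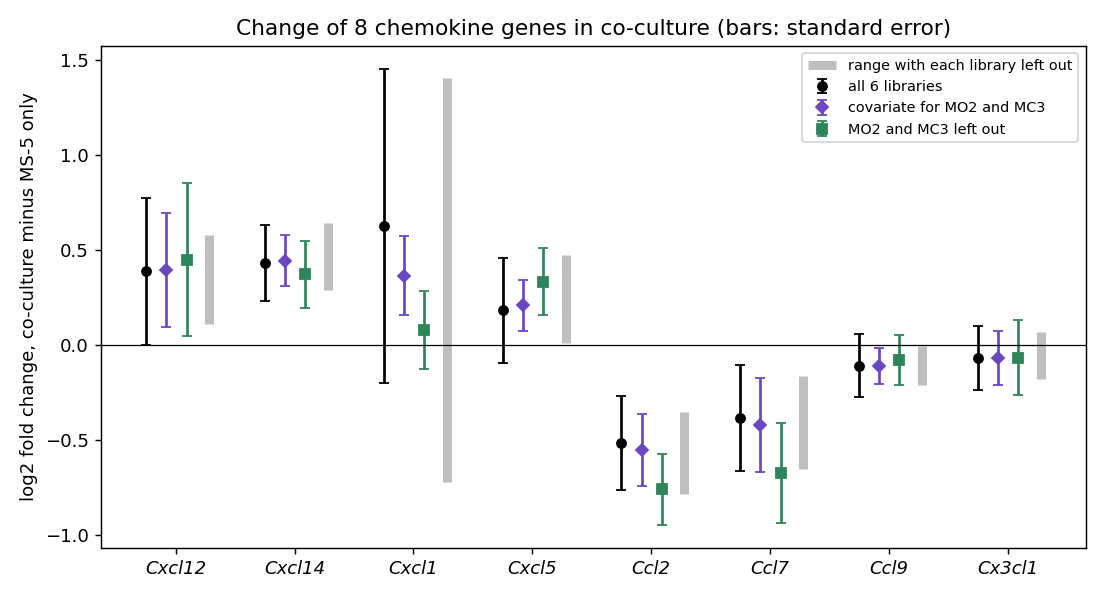
Log2 fold change of co-culture over MS-5 only for the 8 chemokine genes tested, from edgeR on all 6 libraries, with MO2 and MC3 given a covariate, and with both left out. Error bars are standard errors and grey bars span the values with each library left out in turn, which cross 0 for Cxcl1 (-0.72 to 1.40) and Cx3cl1 (-0.18 to 0.07).

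Cxcl12, the niche chemokine (chr6:117168535-117181367, plus strand), varied more among the MS-5 only libraries than between the groups. Its level was 627, 1504 and 1464 CPM in MO1, MO2 and MO3, and 1243, 1571 and 1886 CPM in MC1, MC2 and MC3. MO1 held less than any other library and MC3 the most, and MC1 lay below MO2 and MO3, so the groups overlapped. The group means were 1198 ± 495 CPM in MS-5 only and 1567 ± 322 CPM in co-culture (SD, n = 3), and the log2 fold change was 0.39 with a standard error of 0.39 (edgeR adjusted p = 0.776). Without MO1 the log2 fold change was 0.11 and without MC3 it was 0.23. At 15702 to 64805 estimated counts per library, counting error was small beside the spread between libraries.

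Most Cxcl12 mRNA was of the shortest coding form. Cxcl12-202 held 82.7%, 75.4% and 82.3% of the Cxcl12 TPM in MO1, MO2 and MO3, and 82.7%, 82.2% and 75.3% in MC1, MC2 and MC3. Its mean share was 80.1% ± 4.10 in MS-5 only and 80.1% ± 4.11 in co-culture (SD, n = 3), with an exact two-sided permutation p = 0.7. The lower shares were those of MO2 and MC3, 1 library in each group.

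Cxcl12-203 held 15.2% ± 1.38 in MS-5 only and 15.1% ± 0.535 in co-culture, with an exact permutation p = 0.9 (n = 3). The share of Cxcl12-201, which carries the long basic end printed above, was 2.83%, 5.25% and 1.68% in MS-5 only, against 1.96%, 1.67% and 5.49% in co-culture, and the exact permutation p was 0.9 (n = 3). Cxcl12-204, annotated as a retained intron, held 0.700%, 2.87% and 0.567% in MS-5 only, against 0.875%, 0.840% and 3.67% in co-culture, and the exact permutation p was 0.5 (n = 3). For both transcripts MO2 and MC3 held the largest shares of their group. With 3 libraries against 3, this test has 20 splits and its smallest p-value is 0.1. In a fit across 34440 transcripts, log2 fold changes were 0.44 for Cxcl12-202 and 0.39 for both Cxcl12-203 and Cxcl12-201, with standard errors of 0.35, 0.40 and 0.74. That fit called 0 transcripts of any gene, with 2131 (6.19%) at an unadjusted p-value under 0.05, and 138 (0.401%) with the covariate for MO2 and MC3.

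**Figure D3:**
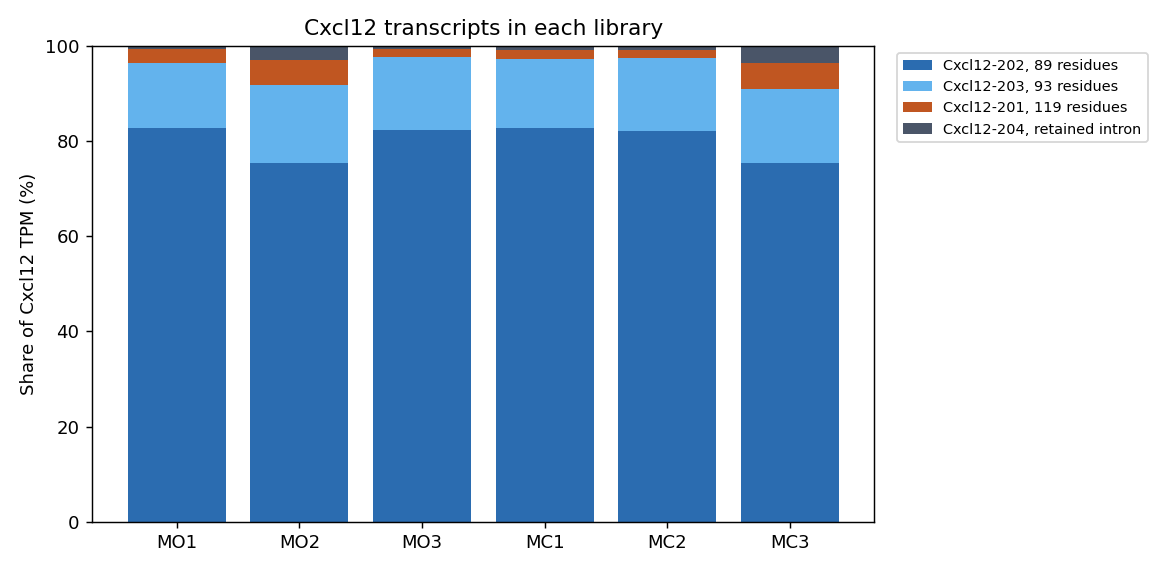
Share of the summed Cxcl12 TPM, in percent, held by each annotated transcript in the 3 MS-5 only (MO) and 3 co-culture (MC) libraries. The 89-residue form takes 75.3% to 82.7% in all 6 libraries, and the 119-residue and retained-intron forms are largest in MO2 and MC3.

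Cxcl14, a chemokine made by epithelial and stromal cells (chr13:56288643-56296551, minus strand), was the one gene of the list with separate groups. It stood at 13.2, 8.56 and 10.2 CPM in MO1, MO2 and MO3 and at 15.1, 14.7 and 13.2 CPM in MC1, MC2 and MC3. MC3 and MO1 were equal to the digits printed, at 454 and 331 estimated counts, so the separation was narrow. The means were 10.6 ± 2.36 and 14.4 ± 1.01 CPM (SD, n = 3), a log2 fold change of 0.43 with a standard error of 0.20 (edgeR adjusted p = 0.403). With the covariate for MO2 and MC3 the log2 fold change was 0.44 and the edgeR adjusted p was 0.0666, whereas with MO2 and MC3 left out they were 0.37 and 0.254. Across each library left out in turn it ranged from 0.29 to 0.64.

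Cxcl1 and Cxcl5 encode ligands of the neutrophil receptor Cxcr2 and lie, with Cxcl2, within one cluster on the plus strand of chromosome 5, at chr5:90891241-90893115 and chr5:90759360-90761624. Cxcl1 was measured at 8.22, 29.5 and 10.6 CPM in MO1, MO2 and MO3, and at 8.94, 10.7 and 55.2 CPM in MC1, MC2 and MC3. MO2 and MC3 were the high libraries, 1 in each group, and the other 4 lay between 8.22 and 10.7 CPM. MO2 exceeded the mean of MO1 and MO3 by 1.61, and MC3 that of MC1 and MC2 by 2.44, on the log2 CPM scale. The log2 fold change between the groups was 0.63 with a standard error of 0.82 (edgeR adjusted p = 0.852), and it was -0.72 without MC3 and 1.40 without MO2. With both left out it was 0.08 with a standard error of 0.21.

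Cxcl5 had a similar pattern with smaller differences. Its level was 11.0, 21.3 and 14.5 CPM in MS-5 only and 15.8, 15.8 and 21.5 CPM in co-culture. MO2 and MC3 again stood highest and nearly level with each other. The log2 fold change was 0.18 with a standard error of 0.28 (edgeR adjusted p = 0.878), and it was 0.013 without MO1 and 0.47 without MO2.

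Cxcl2, a further Cxcr2 ligand with the run shown above (chr5:90903871-90905938), had 5 estimated counts in MO1 and 0 in the other 5 libraries and was not tested. A count of 0 allows up to 3 counts in a library, so a level below that could not be seen at this depth. The gene shares 7.59% of its 31-base words with Cxcl3. Cxcl16, the transmembrane ligand of Cxcr6 (chr11:70453983-70459984), had 6, 5 and 2 estimated counts in MO1, MO2 and MO3 and 6, 1 and 7 in MC1, MC2 and MC3, and was not tested either. Both genes were near the floor in each group.

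Ccl2 and Ccl7 encode ligands of the monocyte receptor Ccr2 and are neighbours on the plus strand of chromosome 11 (chr11:82035571-82037453 and chr11:82045712-82047525), with 8258 bases between them. Ccl2 was measured at 191, 164 and 134 CPM in MO1, MO2 and MO3, and at 98.6, 91.0 and 153 CPM in MC1, MC2 and MC3. MC1 and MC2 lay below every MS-5 only library, whereas MC3 lay between MO3 and MO2. The means were 163 ± 28.8 and 114 ± 33.6 CPM (SD, n = 3), and the log2 fold change was -0.51 with a standard error of 0.25 (edgeR adjusted p = 0.423).

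The call on Ccl2 depended on how MO2 and MC3 were treated. With the covariate the log2 fold change was -0.55 (edgeR adjusted p = 0.0875), and with MO2 and MC3 left out it was -0.76 (edgeR adjusted p = 0.0888). It remained negative with each library left out in turn, from -0.78 without MC3 to -0.35 without MO1. The log2 difference of MC1 and MC2 from MO1 and MO3 was -0.75, and that of MC3 from MO2 was -0.10.

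Ccl7 had a similar pattern among libraries. Its level was 166, 125 and 109 CPM in MS-5 only and 99.8, 70.4 and 136 CPM in co-culture. MC1 and MC2 were again the lowest of the 6 libraries and MC3 was second to MO1. The log2 fold change was -0.38 with a standard error of 0.28 (edgeR adjusted p = 0.637), and no alternative brought its adjusted p-value under 0.1. It ranged from -0.65 without MC3 to -0.16 without MO1. MC1 and MC2 differed from MO1 and MO3 by -0.68, and MC3 from MO2 by 0.12, on the log2 CPM scale.

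Ccl9, which signals through Ccr1, and Cx3cl1, the membrane-anchored ligand of Cx3cr1, had the smallest differences of the genes tested. Ccl9 (chr11:83572919-83578636, minus strand) was measured at 221, 207 and 262 CPM in MS-5 only and at 211, 241 and 189 CPM in co-culture, and the log2 fold change was -0.11 with a standard error of 0.17 (edgeR adjusted p = 0.884). Cx3cl1 (chr8:94772009-94782427, plus strand) was measured at 93.3, 119 and 139 CPM in MS-5 only and at 111, 108 and 116 CPM in co-culture, and the log2 fold change was -0.07 with a standard error of 0.17 (edgeR adjusted p = 0.947). The groups overlapped for both genes, and without MO3 the log2 fold change of Cx3cl1 was 0.069. Ccl9 shares 3.52% of its 31-base words with other genes.

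Retained-intron transcripts, which keep an intron of the unspliced RNA, took a larger share in MO2 and MC3. Over all genes they held 5.25% and 5.38% of TPM in those libraries and 2.47% to 2.74% in the other 4. For Cxcl1 the share was 4.66%, 23.3% and 8.04% in MO1, MO2 and MO3, and 14.1%, 14.8% and 41.1% in MC1, MC2 and MC3. Within each group the library with the most Cxcl1 thus also had the largest share of the retained-intron form. For Ccl2 the share was 1.21%, 16.5% and 3.80% in MS-5 only, against 3.07%, 7.28% and 22.9% in co-culture. For Cxcl5 it ranged from 14.8% to 19.3% over the 6 libraries, with MO2 and MC3 highest in their groups.

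Leaving these transcripts out of the gene sums, an alternative chosen after the values were seen, gave a log2 fold change of 0.09 for Cxcl1 and -0.64 for Ccl2. Ccl2 had an edgeR adjusted p of 0.208 in that fit. The part of the MO2 and MC3 difference in these results was not tested beyond the covariate and the left-out libraries.

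**Figure D4:**
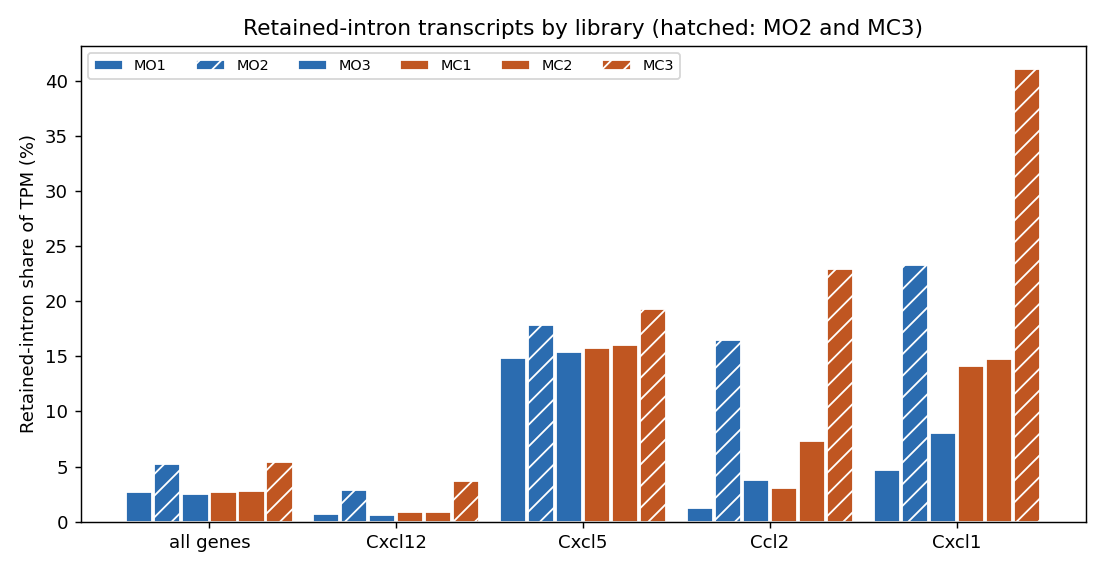
Share of TPM, in percent, held by transcripts annotated as retained introns, over all genes and within 4 chemokine genes, for each MS-5 only (blue) and co-culture (orange) library. Hatched bars are MO2 and MC3, which hold the largest share of their group in each case, up to 41.1% for Cxcl1 in MC3.

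Of 28 other chemokine ligand genes, 6 were tested and 0 passed, with 1 at an unadjusted p-value under 0.05 and a median log2 fold change of -0.17. Among all genes tested, 4.38% passed and 14.3% were at an unadjusted p-value under 0.05. A further 15 had no more than 3 estimated counts in any library. Ccl5, a T-cell and monocyte chemokine, had 2, 6 and 1 estimated counts in MO1, MO2 and MO3, and 15, 77 and 24 in MC1, MC2 and MC3. All co-culture libraries lay above all MS-5 only libraries, with MC2 highest, at a log2 fold change of 3.66 with a standard error of 0.98 (edgeR adjusted p = 0.136). The adjusted p-value of Ccl5 was 0.0114 by DESeq2's Wald test, and by edgeR it was 0.0598 with the covariate and 0.0950 without MO2 and MC3. Ccl5, the 1 ligand at an unadjusted p-value under 0.05, passed the filter on low counts only through co-culture. Its p-values therefore cannot be read against the shares over all genes tested. Without MC2 the log2 fold change was 2.35 (edgeR adjusted p = 0.336). Ccl6 and Ccl17 had log2 fold changes of -0.51 and -0.20, with standard errors of 0.45 and 0.44.

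Chemokine receptor genes were low in MS-5 only, with a summed level of 2.86 to 4.75 CPM over 23 genes, against 6.26, 15.5 and 8.27 CPM in MC1, MC2 and MC3. Of the 23 genes, 4 were tested and 2 passed, both higher in co-culture, namely Ackr3 and Cxcr4, where 3.71% of all genes tested were called higher. Both had at most 3 estimated counts in any MS-5 only library and passed the filter on low counts only through co-culture, so their number among the 4 tested cannot be read against that share. With no filter, 18 receptor genes were tested and 2 passed, both higher. In that fit 704 of 22932 genes passed, 653 of them higher. Both genes encode receptors for Cxcl12. A further 9 receptor genes had no more than 3 estimated counts in any library.

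Ackr3, an atypical receptor that takes up and degrades Cxcl12, had 2, 3 and 0 estimated counts in MO1, MO2 and MO3, and 65, 48 and 42 in MC1, MC2 and MC3. The groups were far apart, and the co-culture libraries stood at 1.98, 1.99 and 1.22 CPM. The summed counts, 155 against 5, gave a ratio of 26.7 after allowing for library size, with an exact 95% interval of 11.2 to 83.4 that covers counting error only (edgeR adjusted p = 0.0734). With each library left out in turn, the edgeR adjusted p ranged from 0.0489 to 0.300. It was over 0.1 without MO1 (0.300), MO2 (0.149), MO3 (0.290) or MC1 (0.111).

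Cxcr4, the signalling receptor for Cxcl12, had 0, 0 and 1 estimated counts in MO1, MO2 and MO3, against 14, 37 and 12 in MC1, MC2 and MC3. MC2 held the most, and the ratio of summed counts, 63 against 1, was 54.3 with an exact 95% interval of 9.39 to 2176 (edgeR adjusted p = 0.0874). The adjusted p-value was over 0.1 without MO1 (0.303), MO2 (0.151), MO3 (0.290), MC1 (0.149) or MC2 (0.196). Cx3cr1, named after its values were seen as the receptor of Cx3cl1, had 37, 13 and 24 estimated counts in MS-5 only, against 74, 218 and 63 in co-culture, where MC2 was again highest (edgeR adjusted p = 0.275).

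The leukocyte markers called higher can be set beside these genes by their place among the co-culture libraries. The measure was how far MC2 exceeded the MS-5 only mean in CPM, relative to how far MC1 and MC3 did on average. The ratio was 1.25 for Ackr3, 4.08 for Cxcr4, 6.54 for Ccl5 and 7.65 for Cx3cr1. Over the 8 leukocyte markers that were higher in co-culture it ranged from 2.57 to 7.31, with a median of 5.19. Of the other 7 markers, Lcp1 (6.77) and Itgb2 (12.2) had a ratio and were not called, and Itgam (3.65) was not tested. Cd53 and Arhgdib had log2 fold changes of -0.11 and -0.16. Tyrobp and Fcer1g were not tested either. The estimated counts of Tyrobp were 0 or 1 in every library. Those of Fcer1g were 6, 3 and 1 in MO1, MO2 and MO3 and 2, 0 and 2 in MC1, MC2 and MC3. Irf8 and Cd37, both among the 8 called, were at 0 in every MS-5 only library. The index held mouse transcripts, so that RNA of SKM-1 could be counted where it resembled a mouse sequence. The part of carried-over leukaemic RNA in Ackr3, Cxcr4, Ccl5 and Cx3cr1 was not tested. Of the 31-base words of Cx3cr1, 1.75% occur in other mouse genes, and of those of Ccl5 0.108%, against 0 for Ackr3 and Cxcr4. Human sequences were not compared, so these shares do not bear on RNA of SKM-1.

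**Figure D5:**
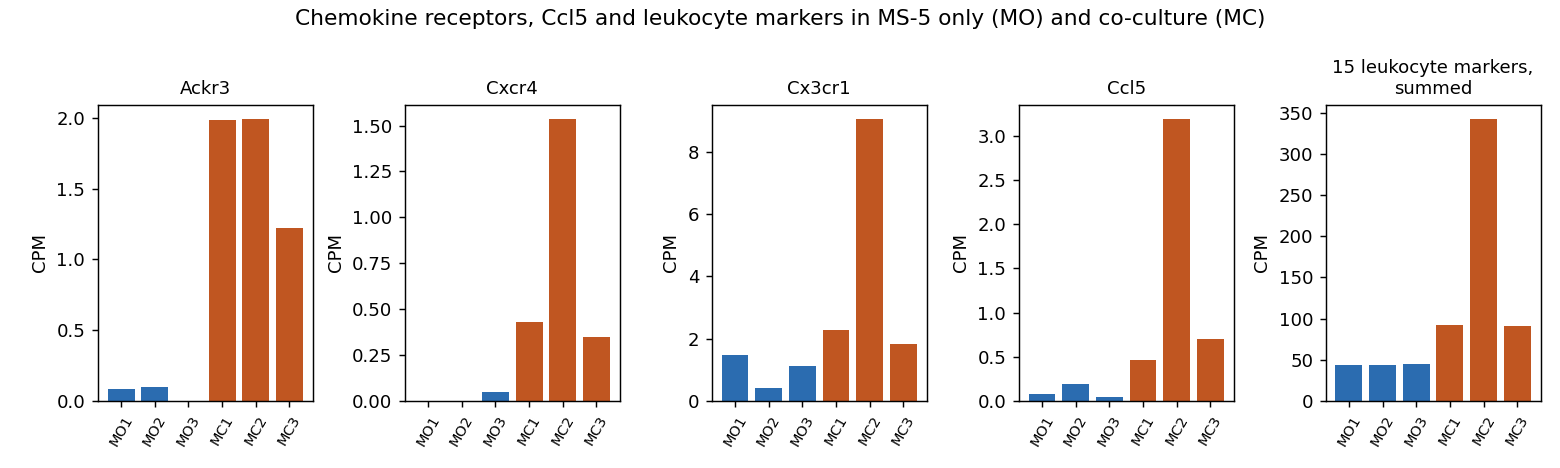
Level in CPM of the receptor genes Ackr3, Cxcr4 and Cx3cr1, of the ligand gene Ccl5 and of 15 leukocyte markers summed, in each MS-5 only (blue) and co-culture (orange) library, each panel with its own axis from 0. Ackr3 is at 1.98, 1.99 and 1.22 CPM in MC1, MC2 and MC3, whereas the other panels have MC2 well above MC1 and MC3, up to 343 CPM for the leukocyte markers.

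Upstream of the inflammatory chemokines, 28 genes of cytokine and NF-kB signalling and its feedback were examined. Of the 24 tested, 1 passed by DESeq2's Wald test, where 1268 of 13221 genes did. By edgeR 0 passed, against 4.38% of all genes tested, and 3 had an unadjusted p-value under 0.05, against 14.3%. The median log2 fold change was 0.18. Positive values were found for 18 and negative values for 6, and in 4 genes (Tlr4, Myd88, Nfkbia and Nfkbie, named after their values were seen) all co-culture libraries lay above all MS-5 only libraries, as in 11.6% of all genes tested. Nfkbia, the NF-kB inhibitor that NF-kB itself induces, was at 65.7, 64.5 and 68.3 CPM in MS-5 only and at 78.5, 83.7 and 82.9 CPM in co-culture, and the log2 fold change was 0.30 with a standard error of 0.11 (edgeR adjusted p = 0.265).

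Zfp36, whose protein binds AU-rich mRNAs such as that of Cxcl1 and speeds their decay, was at 14.9, 57.3 and 17.4 CPM in MS-5 only and at 33.6, 33.7 and 195 CPM in co-culture. MO2 and MC3 were the high libraries, as they were for Cxcl1, and MC1 and MC2 lay above MO1 and MO3. The log2 fold change was 1.55 with a standard error of 0.87 (edgeR adjusted p = 0.512), and with the covariate it was 1.31 (edgeR adjusted p = 0.0110). It was 0.17 without MC3 and 2.43 without MO2. Tnfaip3, a further feedback inhibitor of NF-kB, had a log2 fold change of 0.59 with a standard error of 0.36 (edgeR adjusted p = 0.554, and 0.0156 with the covariate), and it was 0.25 without MC3 and 0.96 without MO2. Lif, a cytokine of the interleukin-6 family, had a log2 fold change of 0.78 with a standard error of 0.83, with -0.54 without MC3 and 1.56 without MO2.

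Proteases that cleave chemokines were examined in the same way. Of 8 genes, 6 were tested and 0 passed by edgeR, DESeq2's Wald test or limma, with 0 at an unadjusted p-value under 0.05 and a median log2 fold change of 0.20. Over all genes tested, 4.38% passed and 14.3% had an unadjusted p-value under 0.05. Mmp2, a metalloproteinase that inactivates Cxcl12, was at 196, 265 and 257 CPM in MS-5 only and at 281, 309 and 296 CPM in co-culture. Its groups did not overlap, with co-culture higher as in 11.6% of all genes tested, and the log2 fold change was 0.30 with a standard error of 0.17 (edgeR adjusted p = 0.507). Mmp13 and Mmp9 had log2 fold changes of 0.67 and 0.22, with standard errors of 0.74 and 0.30, and that of Mmp13 ranged from 0.21 without MC3 to 1.25 without MO2. Dpp4, a peptidase that trims Cxcl12 and was named after its values were seen, had 1, 0 and 0 estimated counts in MS-5 only, against 12, 55 and 12 in co-culture. It was not among the 6 genes that passed the filter on low counts, and MC2 was again the highest library. With no filter all 8 genes were tested and 1 passed, higher in co-culture, where 704 of 22932 genes passed.

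The genes whose levels over the 6 libraries were most like those of 3 of the chemokines were found among 11387 protein-coding genes, by the root mean square difference of log2 CPM centred on each gene's own mean. For Cxcl12 they were Itih2 (0.07), Adamts5 (0.09) and Ggt5 (0.10), which share its low value in MO1. For Ccl2 they were Adat1 (0.08), Ereg (0.08) and Nmnat1 (0.12). For Cxcl1, whose own values spread over a wider range, they were Lif (0.13), Tcim (0.22) and Ccnl1 (0.23).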

How the data were processed

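The authors quantified paired reads with kallisto 0.43.0 against a mouse GRCm38 cDNA index, per the labels and the methods, and deposited the estimated counts and TPM values of each transcript. No normalization between libraries had been applied to the deposited estimated counts, and the deposited TPM values are corrected for effective length. The deposited lengths, in bases, were used for a length offset only. Of 118489 transcripts, 116728 matched GENCODE M21, and the other 1761 (0.476% to 0.562% of counts) were left out.

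For each gene, the estimated counts of its transcripts were added and then rounded. The groups were compared with edgeR 4.0.16 (R 4.3.3) with filterByExpr, TMM, the quasi-likelihood test and Benjamini-Hochberg adjustment over 13221 genes, at a threshold of 0.1. Sleuth 0.30.0, which the authors used, was not used here. A standard error is the log2 fold change over the root of its F statistic. The fit was tested on simulated data.

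The chemokine genes and all other lists were chosen with earlier results of these data known. All 10 genes are named, and from other lists those past the threshold, otherwise the 3 with the largest absolute change at a mean of at least 1 TPM. The alternatives were DESeq2 1.42.0 (size factors or its Wald test), library size, limma 3.58.1 on log2(TPM + 0.5, 0.1 or 1), a length offset, other filters, a replicate block, a covariate for MO2 and MC3, libraries left out, and a threshold of 0.05. Leaving out retained introns was chosen after seeing the data.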

Additional observations from a re-analysis of the deposited data

How the results depend on the processing

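Of the 579 genes called, DESeq2's Wald test gave 1268 in their place, limma 356 with a pseudocount of 0.5 and 224 with 1, the covariate for MO2 and MC3 3999 (1835 higher and 2164 lower, against 491 and 88), leaving out MO2 and MC3 1702 (1087 higher and 615 lower), and a threshold of 0.05 gave 2. With each library left out in turn the count ranged from 0 to 549, and it was 0 without any one of MO1, MO2 or MO3, 283 without MC1 and 281 without MC2. Against 0 of the chemokine genes, 2 passed with the covariate and 1 without MO2 and MC3. Of the other ligands, 1 passed by DESeq2's Wald test, with the covariate and without MO2 and MC3. Of the receptors, 3 passed by DESeq2's Wald test and 3 with the covariate, 1 passed with limma and a pseudocount of 1 and 0 at a threshold of 0.05, and 0 to 2 with each library left out. Of the inducers, 1 passed by DESeq2's Wald test, 7 of 24 with the covariate, where 30.2% of all genes tested passed, and 2 of 24 without MO2 and MC3, where 13.0% did, and 1 protease passed with no filter. Directions turned for Cxcl1 (-0.72 to 1.40 with each library left out, negative without MC3), Lif (-0.54 to 1.56, negative without MC3), Cx3cl1 (-0.18 to 0.069, positive without MO3), Ccl17 (-0.47 to 0.14, positive without MO3) and Mmp9 (-0.18 to 0.41, negative without MC2), and the cause was not tested. The differences in Cxcl12 transcript share moved between -2.41 and 2.32 percentage points for Cxcl12-202, -0.894 and 0.465 for Cxcl12-203, -0.522 and 1.16 for Cxcl12-204, and -1.44 and 0.786 for Cxcl12-201. Of the alternatives for single genes, 334 kept the direction and the side of the threshold, 11 passed where the test on all 6 libraries had not, 11 no longer passed, and 5 turned. Genes with many counts are limited by the spread among 3 libraries a group, and counting error limits Cxcl2, Cxcl16 and Cxcr4.

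Pairing by replicate number was examined by correlating, over genes, each library's deviations from its group mean. Libraries numbered 1 gave 0.53, those numbered 2 gave -0.29 and those numbered 3 gave -0.52, while MO2 and MC3 gave 0.73. Because MO2 and MC3 stood apart and carry different numbers, these values cannot decide whether the numbers pair the libraries. A replicate block gave 444 genes (443 higher and 1 lower), 0 of the chemokine genes, 1 other ligand and 1 receptor.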
